A study of Mus musculus with 8 samples.

Results

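The 39 genes described here are interferon receptors, the transcription factors that carry interferon signals, nucleic acid sensors and interferon-induced genes, in the forebrain of mice with and without microglia. They were chosen by gene symbol, as rows of the deposited count table that carry the listed names, and all 39 were found among the 53278 symbols of that table. Whole-forebrain RNA came from 8 male mice of the C57BL/6J strain, between 10 and 20 weeks old. Food for the 4 depleted mice held PLX3397, an inhibitor of the kinase CSF1R on which microglia depend, and they ate it for 9 days. The 4 control mice ate control food. PLX3397 also inhibits related kinases such as KIT and FLT3, so the groups differ in more than the presence of microglia. Each library is 1 mouse, and errors are SD over 4 mice per group unless a standard error (SE) of the model is named.

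Type I interferons act on a receptor made of IFNAR1 and IFNAR2, and type II interferon (interferon gamma) on one made of IFNGR1 and IFNGR2. The receptors signal through JAK kinases to STAT proteins, and a complex that holds STAT2 and IRF9 binds a promoter element that switches on the interferon-induced genes. In the brain, microglia respond to interferon and are one source of it, but neurons, astrocytes and vessel cells also carry the receptors and several of the induced genes.

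None of the 39 genes passed the main test in either direction in depleted forebrains, where microglial transcripts fell to a small share of the control level. A miss of the threshold does not show that a gene was unchanged. Levels are given as CPM, read counts brought to a common library size with TMM scaling, and the test was edgeR's quasi-likelihood test with Benjamini-Hochberg adjustment over the 20140 genes tested, at an adjusted p under 0.05. All 39 genes had enough counts to be tested, and 0 were lower and 0 higher, where 1.11% of all genes tested were lower and 0.0546% higher. With limma-voom 0 of the 39 passed, and with DESeq2 1 did (Trim30a, lower). At an unadjusted p under 0.05 edgeR gave 4 lower (Trim30a, Mx1, Psmb8 and Irf9) and 1 higher (Cmpk2), or 12.8% of the 39 beside 11.0% of all genes (5.60% lower, 5.38% higher). The median log2 fold change (depleted over control) was -0.05, beside -0.00038 for all genes, with 24 negative and 15 positive values. Their summed level was 333 ± 8.95 CPM in depleted and 342 ± 13.01 CPM in control mice, 97.4% of the control level.

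Csf1r, the gene of the drug's target, had 1.14, 0.386, 1.66 and 1.69 CPM in depleted mice 1 to 4 and 51.6, 65.0, 58.8 and 59.0 CPM in control mice 1 to 4. It fell to 2.08% of the control level (log2 fold change -5.57, SE 0.31, edgeR adjusted p = 1.01e-05). All 15 genes of a microglia marker list fell, with a median log2 fold change of -5.41. Their summed level was 21.5 to 27.6 CPM in depleted and 290 to 350 CPM in control mice. In bulk RNA, fewer cells of a type and less RNA per cell cannot be told apart. Total counts ran from 48455538 to 68406688 per mouse, so 1 CPM was about 49 to 69 counts. The 4 mice numbered 2 and 3 in both groups had 1249 to 2081 counts of the hypothalamic gene Hcrt and the other 4 had 4 to 12, so the pieces of tissue were not alike. Summed striatal markers also differed, at 839 to 3292 CPM in depleted and 342 to 1685 CPM in control mice. All 9 striatal markers had a positive log2 fold change, with a median of 1.45. At an unadjusted p under 0.05 in edgeR 8 were higher (88.9%, beside 5.38% of all genes), and 0 passed the threshold. Tissue content thus differed between the groups, and its part in the levels below was not tested.

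**Figure D1:**
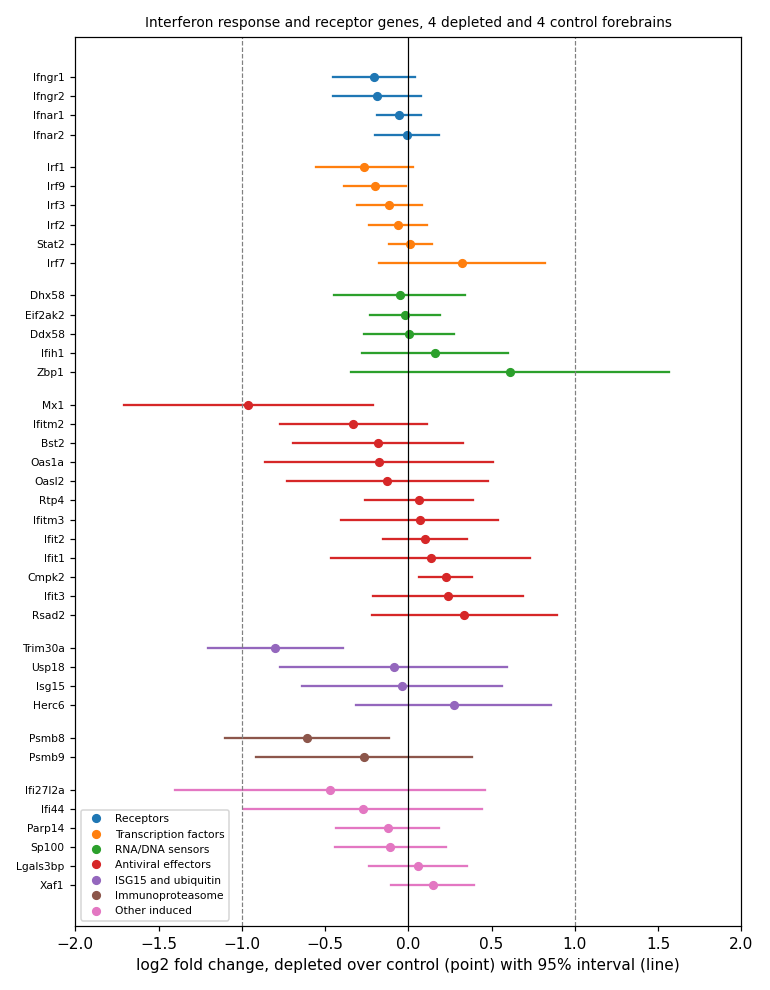
Log2 fold change (depleted over control) of each of the 39 interferon genes, grouped by role, as a point with its 95% interval as a line. The dashed lines mark -1 and 1, a 2-fold change either way, and 34 of the 39 intervals lie between them.

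The intervals show how large a change these libraries could have missed. In 34 of the 39 genes (87.2%) the 95% interval of the log2 fold change lay between -1 and 1, beside 83.0% of all genes tested. The exceptions were Mx1, Trim30a, Psmb8, Ifi27l2a and Zbp1, which all averaged under 3 CPM in both groups. For 18 genes, the 4 receptors among them, the interval lay between -0.5 and 0.5. The groups did not overlap in 3 of the 39 genes (7.69%), beside 5.77% of all genes tested (3.50% lower, 2.28% higher). These were Trim30a and Mx1, lower in depleted mice, and Cmpk2, higher. They are described with their roles below.

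The element bound by the complex with STAT2 and IRF9 has the core GAAANNGAAA, where N is any base. It was searched on both strands of the RefSeq promoters (GRCm38.p6, from 250 bases before to 50 after each start). Of the 39 genes, 32 had an entry, and 14 of these (43.8%) held the core, against 3.99% of the 27025 genes in the promoter table. The element TTCNNNGAA, known as the gamma-activated site and identical on both strands, stood in 10 of the 32 (31.3%) and in 9.55% of all genes. Bases can belong to both patterns. The 4 stretches of 60 bases below come from the genes with the highest log2 fold changes above 0 among those that hold the whole core upstream of the start. Ifih1, Ifitm3 and Ddx58 are left out because theirs reaches past the start. They are written 5′ to 3′ on the strand of the gene, and the capitals mark the core, which appears as its reverse complement because it lies on the other strand.

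Rsad2, chr12:26456538-26456597, minus strand, core beginning 120 bases before the start: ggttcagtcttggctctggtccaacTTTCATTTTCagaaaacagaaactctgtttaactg

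Ifit3, chr19:34583382-34583441, plus strand, core beginning 122 bases before the start: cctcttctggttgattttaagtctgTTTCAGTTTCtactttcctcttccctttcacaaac

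Ifit1, chr19:34640779-34640838, plus strand, with 2 cores, the nearer beginning 85 bases before the start: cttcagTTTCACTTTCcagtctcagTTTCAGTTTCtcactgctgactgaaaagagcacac

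Stat2, chr10:128270251-128270310, plus strand, core beginning 222 bases before the start: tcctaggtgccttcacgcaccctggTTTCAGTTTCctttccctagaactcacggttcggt

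The promoter of Ifit3 held 2 cores, of which only the nearer is in the stretch shown. The core nearest the start shares the letters TTTCAGTTTC in Ifit3, Ifit1 and Stat2, and that of Rsad2 reads TTTCATTTTC. A match is a description of letters, and none of these 4 genes passed the test of level.

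None of the 4 receptor genes passed, and their summed level was 92.7 to 105.9 CPM in depleted and 104.7 to 108.4 CPM in control mice. Ifnar1, the receptor chain that binds the kinase TYK2, had 43.7, 41.6, 38.0 and 39.3 CPM in depleted mice 1 to 4, against 42.5, 40.6, 42.6 and 43.1 CPM in control mice 1 to 4. The groups overlapped, and the log2 fold change was -0.05 (SE 0.06, 95% interval -0.19 to 0.08, edgeR adjusted p = 0.799). Ifnar2, the chain that binds interferon most tightly and carries the STAT2 docking sites, had 13.9, 14.3, 14.6 and 14.9 CPM in depleted mice, against 15.5, 15.6, 14.3 and 12.5 CPM in control mice. Its depleted mice all lay within the range of the controls, at a log2 fold change of -0.0072 (SE 0.09). Its exons share bases with the readthrough gene Gm21970 on the same strand.

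The interferon gamma receptor genes had larger negative values, also without a pass. Ifngr1, the ligand-binding chain, had 9.98, 11.0, 13.4 and 11.7 CPM in depleted mice, against 12.7, 15.1, 13.1 and 12.2 CPM in control mice. Only depleted mouse 3 lay within the control range, and the log2 fold change was -0.21 (SE 0.11, edgeR adjusted p = 0.536; exact two-sided permutation p = 0.143). Ifngr2, the chain that completes the signalling complex, had 34.0, 39.1, 28.2 and 26.9 CPM in depleted mice, against 36.2, 34.2, 34.6 and 40.7 CPM in control mice. Depleted mice 1, 3 and 4 were below every control, mouse 1 by little, and depleted mouse 2 was not, at a log2 fold change of -0.19 (SE 0.12, edgeR adjusted p = 0.618). Over the 17 alternatives described below, the log2 fold change of Ifngr2 ran from -0.29 to -0.0081 and that of Ifngr1 from -0.33 to -0.14. The Ifngr2 difference in mean log2 CPM was -0.05 in the mice with Hcrt reads and -0.34 in those without. For Ifngr1 these differences were -0.22 and -0.20. None of the 4 receptor genes had groups that lay apart.

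None of the 6 transcription factor genes passed, and their median log2 fold change was -0.09. Stat2, the STAT protein particular to interferon signalling, had 33.4, 33.2, 33.0 and 35.5 CPM in depleted mice, against 34.4, 33.8, 31.1 and 34.7 CPM in control mice. Its log2 fold change was 0.01 (95% interval -0.12 to 0.14, edgeR adjusted p = 0.963). Irf9, the DNA-binding partner of the STATs, averaged 14.0 ± 1.01 CPM in depleted and 16.1 ± 1.13 CPM in control mice. Its log2 fold change was -0.20 (SE 0.08, unadjusted p = 0.0361, adjusted p = 0.415 in edgeR), with depleted mouse 4 above the lowest control. Irf9 shares exon bases with Rnf31 on the same strand.

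Irf7, the factor that amplifies type I interferon production and is itself induced by interferon, had 2.09, 3.07, 1.95 and 2.20 CPM in depleted mice, against 2.17, 2.10, 1.95 and 1.20 CPM in control mice. Depleted mouse 2 was the highest and control mouse 4 the lowest of the 8, with the other 6 between 1.95 and 2.20 CPM. The log2 fold change of 0.32 (SE 0.22) did not pass (edgeR adjusted p = 0.652). Irf1, induced mainly by interferon gamma, averaged 6.01 ± 0.783 CPM in depleted and 7.21 ± 0.900 CPM in control mice (log2 fold change -0.26, SE 0.13, edgeR adjusted p = 0.498). Irf3, which sensors activate to start interferon production, and Irf2, which can act against IRF1, stood at log2 fold changes of -0.11 and -0.06.

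The sensor genes did not pass either. Ddx58 encodes RIG-I, a sensor of viral RNA ends. It had 4.28, 4.49, 4.17 and 5.08 CPM in depleted mice, against 5.01, 4.47, 4.69 and 3.79 CPM in control mice, a log2 fold change of 0.0047 (SE 0.12). The groups covered nearly the same range. Zbp1, which binds Z-form nucleic acids and can trigger cell death, had 0.399, 0.590, 0.202 and 0.185 CPM in depleted mice, against 0.146, 0.227, 0.312 and 0.203 CPM in control mice. Depleted mice 1 and 2 were above every control, but these are 8 to 29 counts per library and the 95% interval ran from -0.34 to 1.56 around a log2 fold change of 0.61 (edgeR adjusted p = 0.659). Ifih1 (MDA5, a sensor of long double-stranded RNA) stood at 0.16, Dhx58 (LGP2, a regulator of both RNA sensors) at -0.05 and Eif2ak2 (PKR, the RNA-activated kinase that stops translation) at -0.02, in log2 fold change.

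Of the 12 antiviral effector genes, 5 had a negative and 7 a positive log2 fold change. Mx1 encodes a dynamin-like GTPase that acts against influenza virus, and C57BL/6 mice carry an allele with a deletion in it. It had 0.200, 0.142, 0.130 and 0.144 CPM in depleted mice, against 0.292, 0.227, 0.459 and 0.222 CPM in control mice. The groups lay apart, by a small gap between depleted mouse 1 and control mouse 4, at a log2 fold change of -0.96 (95% interval -1.71 to -0.21, edgeR adjusted p = 0.343). The exact two-sided permutation p was 0.0286, the smallest that 4 against 4 mice can give. Groups that lie apart fix this value, so for Mx1, and for Cmpk2 and Trim30a below, it is no further evidence.

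Cmpk2, a mitochondrial nucleotide kinase gene that neighbours Rsad2 and is induced with it, had 25.6, 22.4, 24.5 and 23.5 CPM in depleted mice, against 18.7, 20.7, 21.5 and 21.3 CPM in control mice. All 4 depleted mice were above all 4 controls, and the log2 fold change was 0.22 (SE 0.07, 95% interval 0.06 to 0.38, edgeR adjusted p = 0.302; exact two-sided permutation p = 0.0286). Rsad2, which encodes the antiviral enzyme viperin, had 1.32, 1.42, 1.17 and 0.926 CPM in depleted mice, against 1.39, 0.968, 0.698 and 0.777 CPM in control mice. Control mouse 1 was within the range of the depleted mice and the other 3 controls were at its lower end or below it, at a log2 fold change of 0.34 (SE 0.25, edgeR adjusted p = 0.681).

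The IFIT genes, whose proteins bind foreign RNA, lay close together. Ifit1 had 2.25, 3.90, 2.73 and 1.89 CPM in depleted mice, against 2.81, 3.17, 2.24 and 1.59 CPM in control mice. Ifit3 had 6.24, 10.9, 8.97 and 7.40 CPM in depleted mice, against 7.95, 8.82, 6.32 and 5.35 CPM in control mice. In both genes depleted mouse 2 was the highest and control mouse 4 the lowest of the 8, and the groups overlapped (log2 fold changes 0.13 and 0.24, edgeR adjusted p = 0.904 and 0.731). Ifit2 stood at 0.10. Ifit3 and Ifit3b are near-identical copies, so the split of reads between them is uncertain. Ifit3b stood at 0.42 (edgeR adjusted p = 0.443), with groups that overlapped.

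Of the remaining effectors, Rtp4, a chaperone gene induced by interferon, had 1.89, 2.24, 1.99 and 2.08 CPM in depleted mice, against 2.30, 2.00, 1.84 and 1.70 CPM in control mice (log2 fold change 0.06, SE 0.14). Its groups covered nearly the same range. The membrane proteins of Ifitm2 and Ifitm3, which block virus entry, are close relatives. Ifitm2 stood at -0.33 (edgeR adjusted p = 0.591) and Ifitm3 at 0.07, and their reads may be shared. Bst2 (tetherin, which holds virus particles at the cell surface) stood at -0.18. Oasl2 and Oas1a, of the family that makes the RNase L activator or binds RNA, stood at -0.13 and -0.18.

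Among genes of ISG15 and of ubiquitin transfer, Trim30a came nearest to the threshold of all 39 genes. It encodes a mouse RING-type protein that dampens Toll-like receptor signalling to NF-kappa-B. It had 0.925, 1.08, 1.49 and 1.19 CPM in depleted mice, against 2.30, 2.06, 2.04 and 1.78 CPM in control mice. The groups lay apart, and 57.3% of the control level was left (log2 fold change -0.80, SE 0.18, 95% interval -1.20 to -0.39). The adjusted p was 0.0975 in edgeR and ran from 0.00656 (DESeq2) to 0.625 (striatum score as a covariate) over 17 alternatives, and the exact two-sided permutation p was 0.0286. Its difference in mean log2 CPM was -0.68 in the mice with Hcrt reads and -0.92 in those without. Reads may be shared with close copies such as Trim30d, which stood at -0.63 (edgeR adjusted p = 0.337).

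Isg15 encodes a ubiquitin-like protein that is induced by interferon and joined to other proteins. It had 1.96, 2.44, 2.12 and 1.69 CPM in depleted mice, against 1.92, 3.44, 1.67 and 1.42 CPM in control mice. Control mouse 2 was above and control mice 3 and 4 below every depleted mouse, at a log2 fold change of -0.04 (95% interval -0.64 to 0.56, edgeR adjusted p = 0.975). Usp18, which removes ISG15 and blocks IFNAR2 signalling, stood at -0.09 (SE 0.30). Herc6, the ligase that joins ISG15 to its targets in the mouse, had 13.2, 7.16, 7.58 and 13.04 CPM in depleted mice, against 8.68, 7.27, 6.03 and 11.9 CPM in control mice. In both groups mice 1 and 4 were above mice 2 and 3, at a log2 fold change between groups of 0.27 (SE 0.26, edgeR adjusted p = 0.771).

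The immunoproteasome genes Psmb8 and Psmb9 encode catalytic subunits that interferon gamma swaps into the proteasome for antigen processing. Psmb8 had 1.12, 1.97, 1.99 and 1.71 CPM in depleted mice, against 3.22, 2.51, 2.70 and 1.94 CPM in control mice. Only control mouse 4 reached into the depleted range, and the log2 fold change was -0.61 (SE 0.22, unadjusted p = 0.0201, adjusted p = 0.361 in edgeR). Psmb9 had 0.744, 1.16, 0.606 and 1.15 CPM in depleted mice, against 1.22, 1.38, 1.10 and 0.666 CPM in control mice. Control mouse 4 was again the lowest control, and the log2 fold change was -0.26 (SE 0.29, edgeR adjusted p = 0.799). Both genes share exon bases with genes on the other strand, Psmb9 with Tap1, and the strand setting of the counting is not given in the sources used here.

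None of the 6 remaining induced genes passed. Ifi27l2a, a small membrane protein gene, had 0.272, 0.875, 0.996 and 0.555 CPM in depleted mice, against 1.37, 1.01, 0.919 and 0.462 CPM in control mice. Depleted mouse 1 was the lowest and control mouse 1 the highest of the 8, and the log2 fold change was -0.47 (95% interval -1.40 to 0.46, edgeR adjusted p = 0.748). Lgals3bp, a secreted glycoprotein gene, had 13.2, 17.1, 17.1 and 13.7 CPM in depleted mice, against 13.8, 15.8, 17.1 and 12.1 CPM in control mice. Its groups overlapped over nearly their whole range (log2 fold change 0.06, SE 0.13). Ifi44, Parp14 (an ADP-ribosyltransferase), Sp100 (a nuclear body protein) and Xaf1 (which promotes apoptosis) stood at -0.27, -0.12, -0.11 and 0.15.

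**Figure D2:**
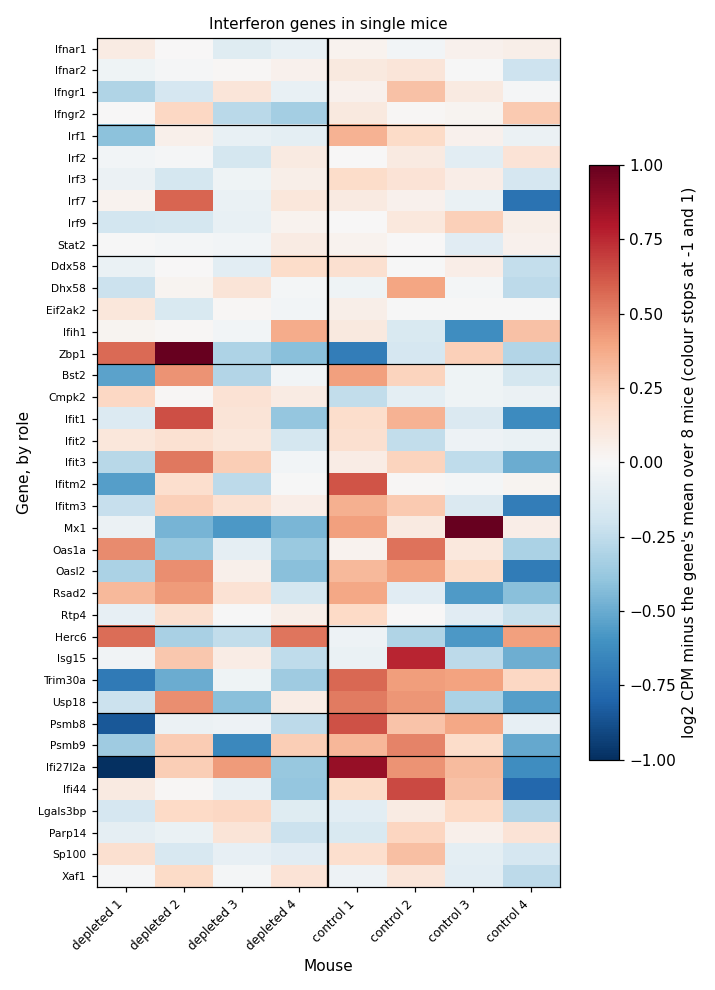
Level of each of the 39 genes in each mouse, as log2 CPM minus that gene's mean over the 8 mice, depleted mice left of the line and control mice right of it, genes grouped by role. Control mouse 4 is the lowest control in 25 of the 39 rows.

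Single mice stood out across many of the genes. Control mouse 4 was the lowest of the 4 controls in 25 of the 39 genes (64.1%), against 32.3% of all genes tested. Depleted mouse 2 was the highest of the depleted mice in 17 (43.6%), against 26.8% of all genes. The genes share libraries, so these counts are not independent. Control mouse 4 also had the lowest summed endothelial markers of the controls (304 CPM, against 348 to 384 CPM in the other controls) and the lowest oligodendrocyte markers (4330 CPM, against 7038 to 8400 CPM). Its neuron markers were the highest (7813 CPM, against 6087 to 6578 CPM). Depleted mouse 2 had the highest summed astrocyte markers of the depleted mice (2508 CPM, against 1884 to 1981 CPM). Its striatal markers were the lowest (839 CPM, against 2591 to 3292 CPM). The part of these differences in the levels of the 39 genes was not tested. The median log2 fold change of the 39 genes was -0.10 without control mouse 4, -0.099 without control mouse 3, -0.028 without depleted mouse 3 and 0.0027 without control mouse 2, and -0.0081 with the striatum score as a covariate. In each of these 5 fits 0 of the 39 passed.

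**Figure D3:**
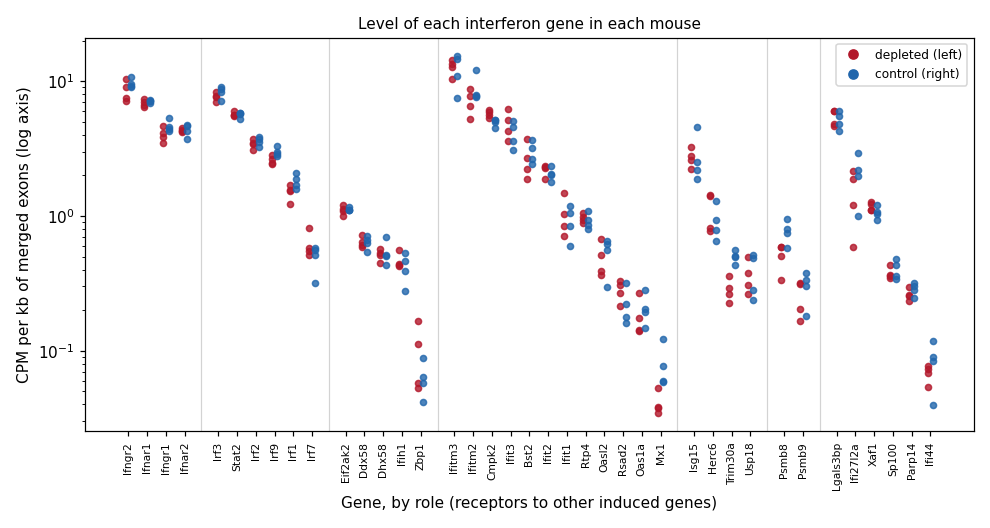
CPM per kilobase of merged exons of each interferon gene in each of the 8 mice, on a log axis, ordered by level within each role. Within most genes the red points of depleted mice and the blue points of control mice cover the same range, while genes differ by over 100-fold.

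Levels per exon length differed widely between the genes. Exon lengths were those of GENCODE M21 on mm10. In control mice Ifitm3 had the highest level, 12.1 ± 3.66 CPM per kilobase, and Zbp1 the lowest, 0.0629 ± 0.0196. Of the receptors, Ifngr2 had 7.13 to 10.4 CPM per kilobase in depleted and 9.08 to 10.8 in control mice, and Ifnar1 6.41 to 7.36 in depleted and 6.84 to 7.25 in control mice. Ifngr1 had 3.50 to 4.69 in depleted and 4.29 to 5.31 in control mice, and Ifnar2 4.19 to 4.46 in depleted and 3.75 to 4.70 in control mice. In control mice the ranges of Ifngr2, Ifnar1 and Ifngr1 did not overlap, while those of Ifngr1 and Ifnar2 did; in depleted mice those of Ifngr2 and Ifnar1 overlapped too. Irf3 (8.29 ± 0.862 CPM per kilobase in control mice), Stat2 (5.65 ± 0.278) and Cmpk2 (4.94 ± 0.302) were among the 10 highest of the 39. Usp18 (0.382 ± 0.141), Rsad2 (0.221 ± 0.0712), Oas1a (0.207 ± 0.0569) and Mx1 (0.0793 ± 0.0293) were near the bottom.

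Other genes of the same pathways did fall. Of 135 genes on 5 further lists, 134 were in the table and 113 had enough counts to be tested. Of these, 8 fell and 0 rose (7.08% lower, beside 1.11% of all genes), with a median log2 fold change of -0.04. The count of higher genes was also 0 in DESeq2 and limma-voom, and at an unadjusted p under 0.05 edgeR gave 25 lower (22.1%) and 6 higher (5.31%), beside 5.60% lower and 5.38% higher of all genes.

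Among 23 genes of JAK, STAT and further IRF proteins and their brakes, 3 fell (13.04%, beside 1.11% of all genes) and 0 rose. The 3 that fell are known from blood-derived cells and microglia. At an unadjusted p under 0.05 in edgeR 5 were lower (21.7%) and 3 higher (13.04%), beside 5.60% and 5.38% of all genes. The median log2 fold change of the 23 was 0.0035, with 11 negative and 12 positive values. Irf8, a factor that microglia need for their development, had 1.20, 0.814, 1.33 and 1.32 CPM in depleted mice, against 5.75, 5.79, 4.26 and 3.75 CPM in control mice (log2 fold change -2.06, SE 0.21, edgeR adjusted p = 4.93e-04). Irf5, which drives inflammatory cytokine genes below Toll-like receptors, had 0.526, 0.712, 0.866 and 0.987 CPM in depleted mice, against 3.03, 4.06, 4.01 and 3.18 CPM in control mice (-2.20, SE 0.21, adjusted p = 3.37e-04). Ptpn6, the phosphatase SHP-1 that dampens JAK signalling, averaged 0.705 ± 0.0789 CPM in depleted and 3.30 ± 0.384 CPM in control mice (-2.22, SE 0.16, adjusted p = 4.42e-05). The groups of all 3 lay far apart. The receptor kinase gene Jak1 stood at a log2 fold change of -0.0048 (edgeR adjusted p = 0.992).

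Among 18 tested genes of nucleic acid sensing, 3 fell (16.7%, beside 1.11% of all genes). The groups lay apart in 8 (44.4%), all lower, beside 3.50% of all genes. Tlr7, the endosomal receptor of single-stranded RNA, had 0.399, 0.407, 0.274 and 0.123 CPM in depleted mice, against 1.74, 1.85, 1.91 and 2.09 CPM in control mice (log2 fold change -2.65, SE 0.30, edgeR adjusted p = 9.99e-04). Unc93b1, which carries TLR7 and related receptors to endosomes, had 2.32, 3.05, 3.43 and 2.49 CPM in depleted mice, against 10.2, 12.2, 11.0 and 10.2 CPM in control mice (-1.94, SE 0.14, adjusted p = 5.07e-05). Tmem173, which encodes the DNA-sensing adaptor STING, had 0.453, 0.651, 0.491 and 0.391 CPM in depleted mice, against 2.27, 2.47, 2.19 and 2.44 CPM in control mice (-2.23, SE 0.19, adjusted p = 1.16e-04). Depleted mice thus kept 15.9% of the control level of Tlr7, 25.9% of Unc93b1 and 21.2% of Tmem173. The adaptor of the RNA sensors, Mavs, and the kinase gene Tbk1 stood at 0.10 and 0.04.

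**Figure D4:**
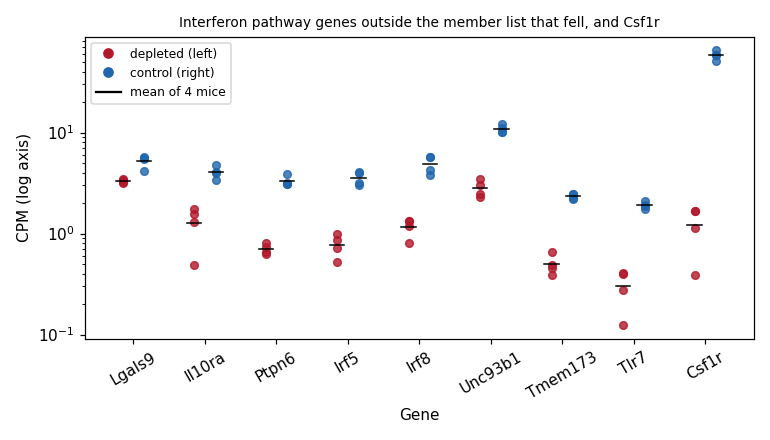
CPM (log axis) of the 8 pathway genes outside the 39 that fell, and of Csf1r, in each depleted (left) and control (right) mouse, with a bar at each mean. In all 9 genes the depleted mice lie below the control mice, and the gap is widest for Csf1r.

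Of 43 further interferon-induced genes tested, 7 were lower (16.3%) and 3 higher (6.98%) at an unadjusted p under 0.05 in edgeR. Over all genes tested these shares were 5.60% and 5.38%. Past the threshold 1 of the 43 fell (2.33%, beside 1.11% of all genes). Lgals9, the gene of galectin-9, had 3.19, 3.48, 3.39 and 3.23 CPM in depleted mice, against 5.43, 5.68, 5.61 and 4.12 CPM in control mice (log2 fold change -0.65, SE 0.13, edgeR adjusted p = 0.0428). It passed in 6 of 17 alternatives, with an adjusted p of up to 0.281. Of 25 genes of interferon gamma-induced GTPases and antigen presentation 0 passed in edgeR, with 4 lower (16.0%, beside 5.60% of all genes) and 0 higher at an unadjusted p under 0.05. The median log2 fold change of the 25 was 0.06, with 11 negative and 14 positive values. The lysosomal reductase gene Ifi30 had the smallest p (-0.52, SE 0.15, adjusted p = 0.257), followed by B2m, the light chain of MHC class I (-0.26, SE 0.10, adjusted p = 0.390).

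The interferon genes themselves were barely counted. Of 10 ligand genes none had enough counts to be tested, and 9 had 0 or 1 count over the 4 mice of either group. The exception, singled out after its values were seen, was Ifne, with 0 counts in the 4 depleted mice and 0, 1, 4 and 6 counts in control mice 1 to 4. A count of 0 allows up to 3 counts, or 0.0135 CPM over the depleted group and 0.0142 CPM over the control group, counting error only. Of the 4 other cytokine receptor genes on that list, Il10ra, a chain of the interleukin-10 receptor, fell. It had 1.74, 0.488, 1.31 and 1.56 CPM in depleted mice, against 3.36, 4.74, 4.02 and 4.00 CPM in control mice (log2 fold change -1.65, SE 0.31, edgeR adjusted p = 0.0362). Depleted mouse 2 was far below the others. Il10ra passed in 10 of 17 alternatives, with an adjusted p of up to 0.188.

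Marker lists of other cells that can carry interferon genes differed in how they moved. Of 8 markers of border-associated macrophages, 5 were tested and 3 fell. The summed level of the 8 was 3.17 to 5.96 CPM in depleted and 12.6 to 17.7 CPM in control mice. At an unadjusted p under 0.05 in edgeR, 3 of the 5 were lower and 1 was higher, beside 5.60% and 5.38% of all genes. The higher one was Cd163, which averaged 2.15 ± 1.05 CPM in depleted and 0.956 ± 0.466 CPM in control mice. Its groups overlapped, at a log2 fold change of 1.18 (SE 0.45, edgeR adjusted p = 0.380). None of 11 blood leukocyte markers had enough counts to be tested, and their sum was 0.453 to 0.866 CPM in depleted and 0.777 to 1.48 CPM in control mice. Endothelial markers summed to 294 to 385 CPM in depleted and 304 to 384 CPM in control mice, with 0 of 11 past the threshold and 0 at an unadjusted p under 0.05. Astrocyte markers summed to 1884 to 2508 CPM in depleted and 1959 to 2183 CPM in control mice, with 0 of 9 past the threshold and 2 lower at an unadjusted p under 0.05 (22.2%, beside 5.60% of all genes). Of 5 markers of oligodendrocyte precursors 3 fell. Oligodendrocyte markers summed to 6777 to 10092 CPM in depleted and 4330 to 8400 CPM in control mice, with 0 of 8 past the threshold and 6 higher at an unadjusted p under 0.05 (75.0%, beside 5.38% of all genes). The part of these cells in the levels above was not tested.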

How the data were processed

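The deposited table holds whole-number raw counts per gene symbol, 1 column per mouse, matched to the titles in the labels. The submitters' processing notes name mm10, the aligner STAR, FastQC, MultiQC, DESeq2 and DESeq, while the counter, its annotation, its strand setting and all versions were not given in the sources used here. filterByExpr kept 20140 of 53278 symbols. The test was edgeR 4.0.16 in R 4.3.3 after TMM scaling, with no covariate. SEs and 95% intervals were derived from the F statistic of each fold change. The prior count for log2 CPM was 2. Exact permutation tests ran over the 70 arrangements of 8 mice. Alternatives used DESeq2 1.42.0, limma 3.58.1 (voom), other scalings and filters, the replicate number or Hcrt presence (at least 100 counts) as a block, a striatum score as a covariate, and 7 of the 8 mice.

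The 39 genes, lists and alternatives were chosen with earlier results of these data known. Values per mouse are given for the receptors, for genes whose groups lay apart, and for the largest and smallest fold change of each role. Those of Ifit1, Ifit3, Rsad2 and Herc6 were added after their values were seen, as were a few further pathway genes. All symbols but Ifi16 of the lists were in the table. Of the 39 genes, 7 share exon bases with a gene on the same strand and 8 only on the other strand (GENCODE M21). Every pair of libraries in a group differed by 11.2 times the sampling noise or more. The steps were tested on simulated data.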

Additional observations from a re-analysis of the deposited data

Results flagged for a closer look

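In 5 of 78 groups of 4 mice (39 genes in 2 groups), 1 mouse stood far from the other 3, where chance gives about 1 in 20. Depleted mouse 4 was such a mouse for Stat2 (35.5 CPM, with 33.0 to 33.4 CPM in depleted mice 1 to 3), for Ifih1 (4.57 CPM, against 3.46 to 3.59 CPM) and for Ifit2 (7.34 CPM, against 8.97 to 9.21 CPM). Control mouse 1 was such a mouse for Ifitm2 (7.91 CPM, against 5.02 to 5.20 CPM in the other controls) and for Eif2ak2 (5.94 CPM, against 5.68 to 5.70 CPM).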

How the results depend on the processing

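Of the 39 genes, 0 were lower in every alternative but DESeq2, which gave 1, and 0 were higher in all. Of 658 fold changes of these genes under the alternatives, 629 kept their direction and 29 did not, all of genes with no pass. Opposite values were -0.0060 for Ddx58 with library size alone and -0.0016 with no filter, 0.11 for Bst2, 0.050 for Ifitm2 and 0.18 for Usp18 with the striatum score, and 0.047 (limma-voom) and 0.025 (replicate block) for Isg15. Leaving out 1 mouse gave log2 fold changes of -0.072 to 0.031 for Ifnar2, -0.016 to 0.030 for Stat2, -0.068 to 0.061 for Ddx58, -0.14 to 0.091 for Dhx58, -0.070 to 0.032 for Eif2ak2, -0.087 to 0.28 for Ifit1, -0.43 to 0.0055 for Oas1a, -0.10 to 0.21 for Ifitm3, -0.19 to 0.30 for Isg15, -0.27 to 0.096 for Usp18 and -0.025 to 0.14 for Lgals3bp. Trim30a ranged from -0.94 to -0.71 without 1 mouse (edgeR adjusted p from 0.0606 to 0.277).

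Over all genes, 223 were lower and 11 higher. DESeq2 gave 349 lower and 125 higher. Higher genes numbered 25 with no filter, 6 with the filter of 1 CPM, 4 with the replicate block and 2 with the striatum score. Leaving out 1 mouse gave 178 to 441 lower and 2 to 243 higher genes, both highest without depleted mouse 2. In the further pathway lists it gave 0 to 1 higher gene. The causes were not tested. The replicate numbers were not taken to pair the mice: deviations of same-numbered mice correlated at -0.22, -0.17, 0.37 and -0.01, not every mouse correlated best with its own number, and the replicate block left 161 lower genes. The filter of 1 CPM kept 34 of the 39 genes. Depth limits Zbp1 and Mx1 most, at 7 or more counts per library.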

Other observations

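Herc6 levels split by the Hcrt content of the tissue in both groups. In the 4 mice with few Hcrt reads (mice 1 and 4 of each group) it had 13.2 and 13.04 CPM in depleted and 8.68 and 11.9 CPM in control mice. In the 4 mice with many Hcrt reads (mice 2 and 3) it had 7.16 and 7.58 CPM in depleted and 7.27 and 6.03 CPM in control mice. The mice with few and with many Hcrt reads did not overlap. This split was noticed in the values and was not tested. How many other genes split in the same way was not counted, so the split cannot be called particular to Herc6. Herc6 shares exon bases with Gm45193 on the same strand.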
